A study of Mus musculus with 16 samples.

Results

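The ends of secretory IgA exposure were compared in injured colon: mice that had neither source of secretory IgA (SIgA) against mice that had both, each after dextran sulfate sodium (DSS). The comparison, chosen with earlier results of these data known, rests on 4 of the 16 arrays of the series, taken by their titles. They are 2 arrays of DSS-treated mice negative for passive and for active SIgA, and 2 arrays of DSS-treated mice positive for both. Passive SIgA is what a pup takes in with its mother's milk, so pups of Pigr+/- dams had it and pups of Pigr-/- dams lacked it. Active SIgA is what the animal itself transports, which Pigr+/- offspring do and Pigr-/- offspring do not. The neither group was thus Pigr-/- offspring of Pigr-/- dams. The passive only group was Pigr-/- offspring of Pigr+/- dams, the active only group was Pigr+/- offspring of Pigr-/- dams, and the both group was Pigr+/- offspring of Pigr+/- dams. All mice were C57BL/6, gender-matched and 70 days old, and those called DSS below drank 2% DSS for 8 days. Each group also had an untreated counterpart. An array measured the RNA of colonic epithelial cells isolated from 3 pooled mice, so that each of the 8 groups held 2 arrays and 6 mice, on an Affymetrix whole-transcript design. Pigr+/- animals stand here for the sufficient state, and Pigr+/+ mice were not analysed here. Neither and both differ in the dam's genotype and in the offspring's own genotype at the same time, so that these cannot be told apart between them, and the labels name no litters.

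The polymeric immunoglobulin receptor, the product of Pigr, binds dimeric IgA made by plasma cells under the epithelium and carries it through the epithelial cell into the lumen. There it is cut off together with part of the receptor, and the released complex is SIgA, which coats gut bacteria and keeps them from the mucosa. DSS damages the colonic epithelium, lets bacteria reach it, and sets off cytokine release, antimicrobial defence, stress responses and repair.

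The deposited values are log2 intensities, for 19938 genes with a probe set that names 1 gene. A difference of 1 is a factor of 2 in intensity, and the level of one gene cannot be set against that of another. Every difference below is neither minus both unless another pair is named, with its standard error from a fit in which all 16 arrays share one estimate of the spread. The p-values come from limma's moderated test, two-sided and adjusted by Benjamini-Hochberg over the 19938 genes, and an adjusted p under 0.05 made a call. They measure the spread between pools of mice, and 2 arrays a group limit the precision. All 8 epithelial markers were measured, and their mean was 12.25 and 12.27 in the neither arrays and 12.25 and 12.29 in the both arrays, with single markers between -0.08 and 0.12. Some arrays stood apart. Over 1285 genes of chemosensory receptors and keratin-associated proteins the mean level was 4.53 and 4.61 in the DSS neither arrays and 4.70 and 4.45 in the DSS both arrays, but 5.25 and 5.41 in the untreated both arrays, above the other arrays of the series (4.45 to 4.87). Replicate 2 of the DSS both group had the highest values of the 16 arrays for the Y-linked genes Eif2s3y, Uty and Kdm5d. Eif2s3y stood at 7.66 and 7.12 in the neither arrays and at 6.98 and 9.23 in the both arrays. Xist, the RNA that silences an X chromosome in female cells, stood at 12.32 and 12.28 in the neither arrays and at 12.03 and 11.61 in the both arrays. The part of these differences in the results below was not tested, and values with a compared array left out stand beside many of them.

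A single gene was called between neither and both after DSS, and it was Pigr, the gene that defines the groups. Pigr stood at 11.48 and 11.58 in the neither arrays, at 11.34 and 11.39 in the passive only arrays, at 12.46 and 12.44 in the active only arrays and at 12.38 in both arrays of the both group. The arrays of Pigr-/- offspring lay below those of Pigr+/- offspring without overlap, in the order that the offspring's genotype gives. Pigr fell by 0.85 ± 0.10 log2 (adjusted p = 0.0375, 95% interval -1.07 to -0.62), 1.8-fold lower with neither source. Signal remained in Pigr-/- offspring, and its source was not tested. The call made up 0.00502% of the 19938 genes, with 0 genes called higher by limma. It rested on all 4 arrays: without any 1 of them the difference stayed between -0.90 and -0.80, with an adjusted p between 0.197 and 0.326. Without replicate 2 of the neither group a nucleolar RNA, Snora74a, was called in its place, and without any of the other compared arrays 0 genes were called. At an unadjusted p under 0.05 stood 458 genes, 2.3% of those tested. Of them 195 (0.978%) were higher and 263 (1.32%) lower with neither source. The 2.3% is a smaller share than such a threshold passes where no gene differs, so the 458 are not read as changes.

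Precision was read from 95% intervals, which are per gene and unadjusted. They take their spread from all 16 arrays and do not bound all genes at once. The median difference over all genes was -0.01 and the median standard error 0.15 log2. The 95% interval lay within 0.5 log2 of 0 for 14212 genes, 71.3% of those tested, and within 1 log2 of 0 for 19738 genes, 99%. Only 147 genes (0.737%) had an estimated difference over 0.5 log2 in either direction, and 16 (0.0802%) one over 1 log2. Across genes, an array of the neither group differed from one of the both group with an SD of 0.218 to 0.257 log2 over the 4 possible pairs. The 2 neither arrays differed from each other with an SD of 0.187, and the 2 both arrays with one of 0.317. The both replicates were therefore farther from each other than either was from an array of the neither group. By the values alone, the 2 neither arrays lay wholly below the 2 both arrays for 12.5% of genes and wholly above them for 10.2%.

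**Figure D1:**
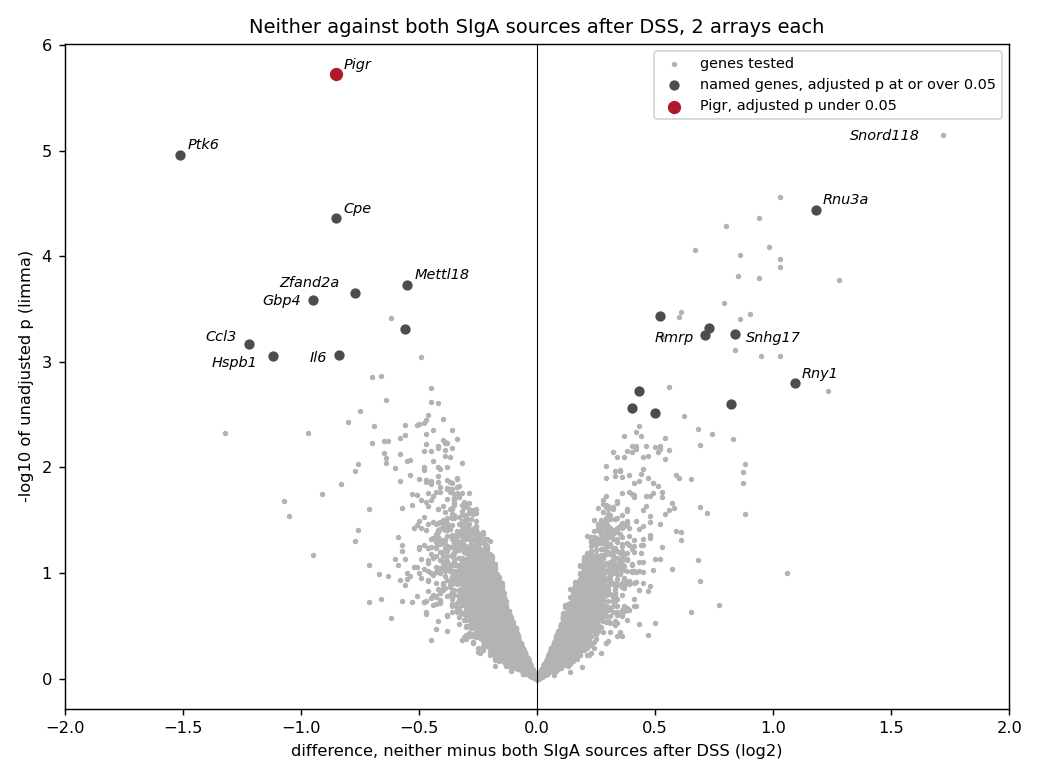
Difference between neither and both SIgA sources after DSS (x axis, log2) against the -log10 of its unadjusted p (y axis) for 19938 genes, with 2 arrays a group. Pigr, at -0.85, is the only gene called, and Ptk6 at -1.51 and Snord118 at 1.72 lie farther out with an adjusted p of 0.0727 and 0.0703.

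The genes of smallest p on the low side after Pigr led with Ptk6, a tyrosine kinase of gut epithelial cells. Ptk6 stood at 7.85 and 7.34 in the neither arrays, at 9.27 and 9.04 in the passive only arrays, at 8.55 and 8.12 in the active only arrays and at 9.11 and 9.10 in the both arrays. The neither arrays were below the 6 other DSS arrays, and the active only arrays came next. The difference of Ptk6 was -1.51 ± 0.22 (adjusted p = 0.0727), a factor of 2.84, and it missed the threshold. In untreated mice Ptk6 stood at 7.69 and 7.31 with neither source and at 7.07 and 7.53 with both, where the groups overlapped. Its response to DSS, DSS minus untreated, was 0.10 log2 in the neither group and 1.80 in the both group.

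Cpe, the carboxypeptidase that trims prohormones in endocrine cells, stood at 6.51 and 6.43 in the neither arrays and at 7.20 and 7.42 in the both arrays, with passive only at 7.37 and 7.11 and active only at 6.95 and 6.66. Its difference was -0.85 ± 0.14 (adjusted p = 0.124), and the neither arrays were the lowest of the DSS arrays. Zfand2a, a stress-induced protein that binds the proteasome, stood at 11.04 and 10.67 with neither source and at 11.51 and 11.73 with both (-0.77 ± 0.15, adjusted p = 0.244). Its groups did not overlap, and its values in the active only arrays were 11.11 and 11.17. Mettl18, a histidine methyltransferase, stood at 5.13 and 5.01 with neither source and at 5.62 and 5.60 with both (-0.55 ± 0.11, adjusted p = 0.218). For Mettl18 the 2 groups with a single source were at the level of the both group, with differences from it of 0.02 for passive only and -0.02 for active only. Tgm2, tissue transglutaminase, which cross-links proteins of the matrix, stood at 8.63 and 8.67 with neither source and at 9.19 and 9.22 with both (-0.56 ± 0.12, adjusted p = 0.345). Its single-source groups lay between these ends, at 8.94 and 9.08 for passive only and at 8.79 and 8.76 for active only.

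**Figure D2:**
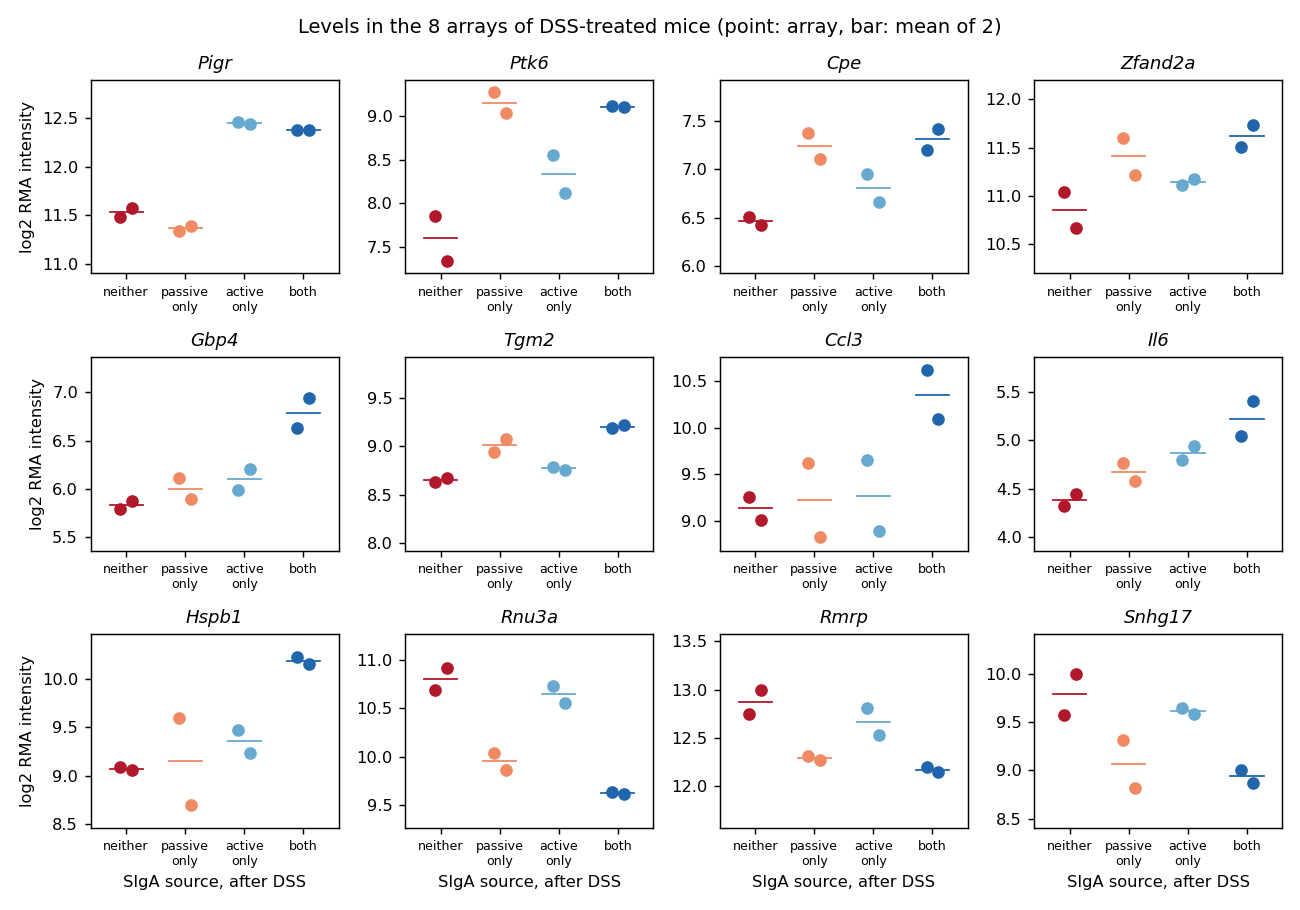
Log2 intensity (y axis) of 12 genes in the 8 arrays of DSS-treated mice, by SIgA source on the x axis (points: arrays, bars: means of 2). Pigr splits by offspring genotype, Ptk6 is lowest with neither source at 7.85 and 7.34, and Rnu3a is highest with neither source and with active only.

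On the high side most of the named genes were small non-coding RNAs or a host of such RNAs, and none was called. The rule for named genes leaves Snora and Snord symbols aside, and they come with the larger set below. Rnu3a, a U3 small nucleolar RNA that guides the cutting of ribosomal RNA precursors, stood at 10.69 and 10.92 in the neither arrays, at 10.04 and 9.87 in the passive only arrays, at 10.73 and 10.56 in the active only arrays and at 9.64 and 9.62 in the both arrays. The groups separated by the dam's genotype, with both groups of Pigr-/- dams above both groups of Pigr+/- dams. Its difference was 1.18 ± 0.19 (adjusted p = 0.124). Rmrp, the RNA of ribonuclease MRP, stood at 12.75 and 13.00 with neither source and at 12.20 and 12.15 with both (0.71 ± 0.16, adjusted p = 0.366). Snhg17, a host gene of small nucleolar RNAs, stood at 9.57 and 10 with neither source and at 9.01 and 8.87 with both (0.84 ± 0.19, adjusted p = 0.366). The neither arrays lay above the both arrays for Rmrp and Snhg17 alike, and the active only group stood nearer to the neither group in each. The rest were Rnu12 (0.73), Rnu5g (0.82) and Rprl2 (0.52), Rny1 (1.09) and Rny3 (0.43), which are Y RNAs that the Ro60 protein binds, Endov (0.40), an endonuclease that cuts RNA at inosine, and Bpifb9a (0.50). Rny1 was not called, at 10.88 and 11.46 with neither source and at 9.66 and 10.50 with both.

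These RNAs belong to a larger pattern that was looked at after their values were seen and has no test. Of 69 small nuclear, nucleolar and related RNAs, 63 had a difference above 0, beside 46.4% of all genes. Their median was 0.56 against -0.01 over all genes. By limma 0 were called, and 48 had an unadjusted p under 0.05, all higher with neither source, beside 0.978% of all genes. For 56 of the 69 the neither arrays lay wholly above the both arrays, which 10.2% of all genes do. The mean of the 69 was 9.32 and 9.48 in the neither arrays, 8.98 and 8.97 in the passive only arrays, 9.42 and 9.24 in the active only arrays, and 8.74 and 8.92 in the both arrays. The gap was not particular to DSS: in untreated mice the mean was 9.50 and 9.33 with neither source and 8.91 and 8.86 with both. Untreated passive only stood at 9.21 and 9.35 and active only at 9.22 and 9.56, without a clear split by the dam's genotype. Snord118, the U8 RNA needed to process the RNA of the large ribosomal subunit, had the widest gap: 12.85 and 12.68 with neither source against 11.13 and 10.96 with both, a difference of 1.72 ± 0.24 (adjusted p = 0.0703). It was called in place of Pigr in the fit of the 8 DSS arrays alone (adjusted p = 0.0162), and beside Pigr with limma-trend (0.0167). The median of the 69 stayed between 0.46 and 0.71 when any 1 of the 4 arrays was left out.

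Genes of the injury response gave a further view of the same 4 arrays. They were chosen on the passive only and active only groups, which share no array with neither or both: an adjusted p under 0.05 and at least 1 log2 between DSS and untreated mice. Of these, 82 rose and 28 fell with DSS. The 82 had a median response to DSS of 1.28 in the neither group and 1.68 in the both group, and 1.33 in the groups they were chosen on. Between neither and both after DSS, 76 of the 82 were below 0 and 6 above, with a median of -0.27 against -0.01 over all genes, where 53.6% were below 0 and 46.4% above. By limma 0 of the 82 were called, and 20 had an unadjusted p under 0.05, each of them lower with neither source, beside 1.32% of all genes. For 48 of the 82, 58.5%, the neither arrays lay wholly below the both arrays, beside 12.5% of all genes. The mean of the 82 was 8.71 and 8.53 in the neither arrays, 8.87 and 8.74 in the passive only arrays, 8.90 and 8.64 in the active only arrays, and 8.84 and 9.08 in the both arrays. Without replicate 2 of the both group the median was -0.21 and 63 of the 82 were below 0, and over the 4 arrays left out in turn the median stayed between -0.42 and -0.20.

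The wider gaps among the injury genes were those of Ptk6, of Ifi205, an interferon-inducible gene, at -1.32 ± 0.39, of Ccl3 at -1.22, of Ido1 at -1.07 and of Lcn2 at -0.97, picked out after their values were seen. Ifi205 stood at 6.84 and 6.74 in the neither arrays, at 6.94 and 6.09 in the passive only arrays, at 7.26 and 8.07 in the active only arrays and at 7.74 and 8.48 in the both arrays, where neither and both did not overlap. The response to DSS did not order the gaps: Ccl3 had the next largest response of the chosen groups after Clca4b, 2.84 log2, and Reg3g one of 2.83. Clca4b, a member of a family of chloride channel regulators, responded by 3.78 log2 and stood at 11.73 and 11.07 with neither source and at 11.17 and 11.92 with both (-0.14 ± 0.30). Reg3g, a lectin that kills Gram-positive bacteria, stood at 12.64 and 12.29 with neither source and at 12.41 and 13.11 with both (-0.30 ± 0.36). The groups overlapped for each of them, and without replicate 2 of the both group the sign turned, to 0.23 for Clca4b and 0.05 for Reg3g. Of the 28 genes that fell with DSS, 20 were above 0 and 8 below between neither and both, with a median of 0.20, and for 10 of them (35.7%) the neither arrays lay wholly above the both arrays, beside 10.2% of all genes. Their mean was 7.98 and 8.04 in the neither arrays and 7.98 and 7.72 in the both arrays, so replicate 1 of each stood alike. In the groups they were chosen on it was 7.67 and 7.59 for passive only and 7.89 and 7.81 for active only. Their median against both was -0.28 for passive only and -0.09 for active only. The median of neither minus both without replicate 2 of the both group was 0.02.

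**Figure D3:**
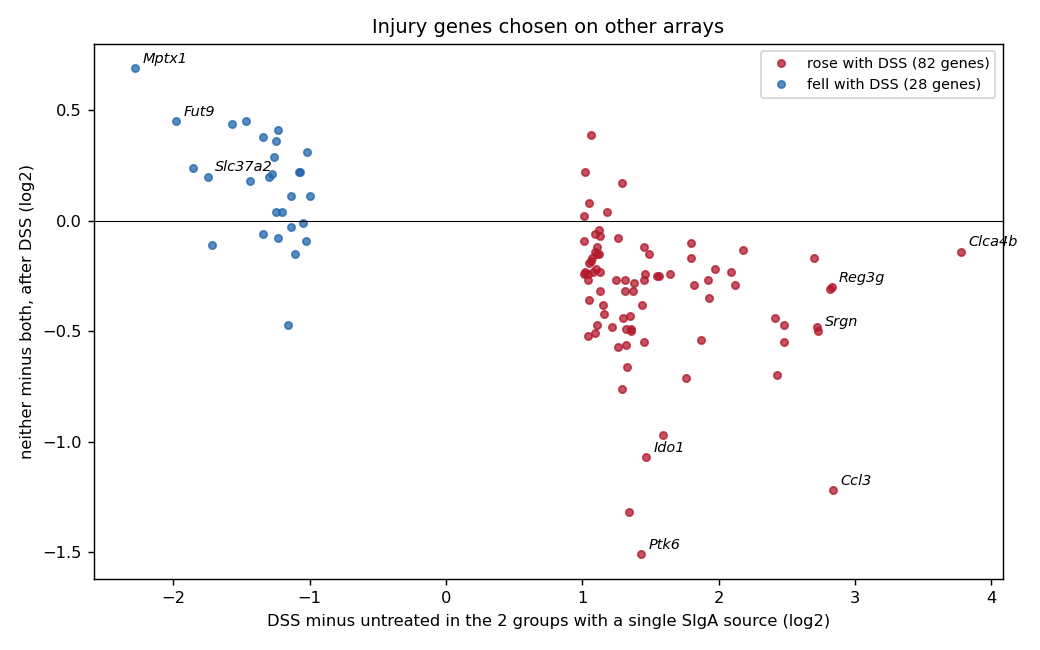
Genes that responded to DSS by at least 1 log2 in the passive only and active only groups (x axis, DSS minus untreated, log2) against their difference between neither and both after DSS (y axis, log2), which uses other arrays. Of the 82 genes that rose, 76 lie below 0, and of the 28 that fell, 20 lie above 0.

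Gene lists by function were then read by their members, each against the shares of all genes. The lists were chosen with earlier results of these data known, so these shares describe the members and test nothing. No list but that of IgA transport held a called gene, so that the differences below are values and not changes. The heat shock list, chaperones that refold proteins under stress, had 13 members measured, and all 13 were below 0, with a median of -0.34. Of them 5 (38.5%) had an unadjusted p under 0.05, all lower with neither source, beside 1.32% of all genes, and for 6 (46.2%) the neither arrays lay wholly below the both arrays, beside 12.5%. Hspb1, a small chaperone, stood at 9.09 and 9.06 in the neither arrays, at 9.60 and 8.70 in the passive only arrays, at 9.47 and 9.24 in the active only arrays and at 10.23 and 10.15 in the both arrays. The both arrays were the highest of the 8 without overlap, and the difference was -1.12 ± 0.26 (adjusted p = 0.470). Hsph1, a large chaperone that helps Hsp70, stood at 10.27 and 10.62 with neither source and at 11.04 and 11.38 with both (-0.77 ± 0.26, adjusted p = 1). Hspa1a, the inducible Hsp70, stood at 12.15 and 12.25 with neither source and at 12.58 and 12.74 with both (-0.46 ± 0.18, adjusted p = 1), and Hspd1, the mitochondrial Hsp60, differed by -0.45 ± 0.17. Without replicate 1 of the neither group the difference of Hspd1 was -0.22, and without replicate 2 of the both group -0.29. The list mean was 10.26 and 10.36 in the neither arrays, 10.44 and 10.23 in the passive only arrays, 10.49 and 10.35 in the active only arrays, and 10.53 and 10.89 in the both arrays. The both arrays were thus the highest, and the list's median against both was -0.33 for passive only and -0.26 for active only. Without replicate 2 of the both group the median of neither minus both was -0.19 with 9 of 13 below 0. The list's median in untreated mice, on other arrays, was -0.37.

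The promoters of Hspb1 and Hspa1a are shown as examples of members that hold the heat shock element, the motif of the factor that induces chaperones. The windows are the 250 bases before the annotated start, from RefSeq on GRCm38.p6, read 5′ to 3′ on the strand of the gene: chr5:135887669-135887918 on the plus strand for Hspb1 and chr17:34972157-34972406 on the minus strand for Hspa1a. Capitals mark GAANNTTC, which reads the same on both strands.
Hspb1: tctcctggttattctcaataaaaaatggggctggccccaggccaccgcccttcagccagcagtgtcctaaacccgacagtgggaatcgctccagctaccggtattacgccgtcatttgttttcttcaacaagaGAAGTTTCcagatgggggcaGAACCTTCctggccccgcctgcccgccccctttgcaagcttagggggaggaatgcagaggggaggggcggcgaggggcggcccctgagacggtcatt
Hspa1a: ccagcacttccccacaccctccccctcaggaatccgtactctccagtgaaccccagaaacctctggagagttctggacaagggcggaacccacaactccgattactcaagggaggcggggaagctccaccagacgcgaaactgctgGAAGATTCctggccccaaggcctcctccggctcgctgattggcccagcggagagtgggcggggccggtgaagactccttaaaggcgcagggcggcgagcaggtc
The Hspb1 window holds the motif at 117 and 97 bases before the start, and the Hspa1a window at 104. Of the 11 heat shock genes with a promoter in the table, 5 hold it (45.5%), namely Hspa1a, Dnaja1, Hspb1, Hspd1 and Hspe1, beside 7.73% of 27025 genes and 6.69% of 32851 promoters. Hsph1 is not among the 5, and it may lack the motif or a promoter to search. A match describes the letters and is not a site shown to be used.

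Of the cytokines and chemokines, 36 were measured, of which 31 were below 0 and 5 above, with a median of -0.22. An unadjusted p under 0.05 was found for 7 (19.4%), all lower with neither source, beside 1.32% of all genes, and for 19 (52.8%) the neither arrays lay wholly below the both arrays, beside 12.5% of all genes. Ccl3, a chemokine that draws in macrophages and neutrophils, stood at 9.26 and 9.01 in the neither arrays, at 9.62 and 8.82 in the passive only arrays, at 9.65 and 8.89 in the active only arrays and at 10.62 and 10.09 in the both arrays. The both arrays were above all other DSS arrays, and the difference was -1.22 ± 0.27 (adjusted p = 0.426). Il6, a cytokine of the acute inflammatory response, stood at 4.32 and 4.44 with neither source, at 4.76 and 4.58 with passive only, at 4.79 and 4.94 with active only and at 5.04 and 5.40 with both. The 4 groups followed the order neither, passive only, active only, both without overlap for Il6 (-0.84 ± 0.20, adjusted p = 0.470). These Il6 values were low, near the mean of the chemosensory and keratin-associated genes. That mean was 4.53 and 4.61 in the neither arrays and 4.70 and 4.45 in the both arrays. Whether Il6 stood above background was not tested. Il1a, an alarm cytokine released by damaged cells, stood at 7.98 and 7.95 with neither source and at 8.35 and 9.0 with both (-0.71 ± 0.28, adjusted p = 1), and without replicate 2 of the both group the difference was -0.38. Its single-source groups were not between these ends, since passive only stood at 7.61 and 7.47. Il33, another alarm cytokine, differed by -0.28 ± 0.12.

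The promoters of Il6 and of Cxcl2, a chemokine for neutrophils that was added after its values were seen (9.36 and 9.38 with neither source against 9.60 and 10.01 with both, -0.44 ± 0.20, or -0.24 without replicate 2 of the both group), are shown for the motif of NF-kB, the factor that drives inflammatory genes. The windows of 250 bases are chr5:30012864-30013113 for Il6 and chr5:90903649-90903898 for Cxcl2, both on the plus strand of GRCm38.p6, from RefSeq. Capitals mark GGNNTTTCC, searched on both strands.
Il6: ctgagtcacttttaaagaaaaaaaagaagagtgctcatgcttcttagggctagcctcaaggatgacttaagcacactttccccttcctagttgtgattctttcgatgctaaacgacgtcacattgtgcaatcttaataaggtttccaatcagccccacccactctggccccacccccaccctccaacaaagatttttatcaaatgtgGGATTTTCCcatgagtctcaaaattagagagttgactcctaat
Cxcl2: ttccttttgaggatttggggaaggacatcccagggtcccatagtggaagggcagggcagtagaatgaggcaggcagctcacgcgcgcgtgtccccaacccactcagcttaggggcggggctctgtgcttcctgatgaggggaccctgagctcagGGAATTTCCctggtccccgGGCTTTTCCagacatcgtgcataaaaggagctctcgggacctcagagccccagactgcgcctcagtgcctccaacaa
The motif begins 43 bases before the start in the Il6 window and 96 and 77 bases before it in the Cxcl2 window. It is in the promoters of 8 of 24 cytokine genes in the table (33.3%), beside 5.62% of 27025 genes and 4.93% of 32851 promoters. The 8 are those of Il6, Cxcl1, Cxcl2, Cxcl3, Cxcl9, Cxcl10, Ccl20 and Il1rn. Ccl3 is not among them, and it may lack the motif or a promoter to search.

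Antigen presentation by MHC class II, whose molecules show peptides to helper T cells and which colonic epithelium takes up in inflammation, had 9 members measured with a median of -0.35, 8 of them below 0. Of the 9, 4 (44.4%) had an unadjusted p under 0.05, all lower with neither source, beside 1.32% of all genes. H2-Ab1, a chain of the class II molecule, stood at 8.17 and 8.29 with neither source and at 8.45 and 9.04 with both (-0.51 ± 0.22), and Cd74, the invariant chain that escorts it, stood at 8.64 and 8.54 with neither source and at 8.91 and 9.78 with both (-0.76 ± 0.33). In each the groups did not overlap, but replicate 2 of the both group stood well above replicate 1. H2-Eb1, another chain, differed by -0.35 ± 0.13 and H2-DMa, which helps load the peptide, by -0.45 ± 0.16, all with an adjusted p of 1. With any 1 of the 4 arrays left out the list's median lay between -0.43 and -0.22. Of the 9, 8 were below 0 without replicate 2 of either group, 6 without replicate 1 of the both group and 5 without replicate 1 of the neither group. Without replicate 2 of the both group Cd74 differed by -0.33 and H2-Ab1 by -0.22. Of 14 genes of MHC class I and the immunoproteasome, 10 were below 0 with a median of -0.07, and 3 (21.4%) had an unadjusted p under 0.05, all lower with neither source, beside 1.32% of all genes, among them the proteasome subunits Psmb8 (-0.36 ± 0.15) and Psmb9 (-0.29 ± 0.13).

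Among 32 interferon-stimulated genes, 22 were below 0 with a median of -0.12, and 3 (9.38%) had an unadjusted p under 0.05, all lower with neither source, beside 1.32% of all genes. The median was -0.02 without replicate 1 of the both group and -0.05 without replicate 1 of the neither group, with 18 of 32 below 0 in each case. Gbp4, an interferon-induced GTPase, stood at 5.79 and 5.88 in the neither arrays, at 6.11 and 5.90 in the passive only arrays, at 5.99 and 6.21 in the active only arrays and at 6.63 and 6.94 in the both arrays. The both arrays were above the other 6, and the difference was -0.95 ± 0.19 (adjusted p = 0.271). Ido1, which degrades tryptophan, stood at 7.24 and 8.50 with neither source and at 8.72 and 9.17 with both (-1.07 ± 0.41), a gap no wider than that between the 2 neither arrays, and -0.44 without replicate 1 of the neither group. Iigp1, a GTPase that acts on vacuoles of intracellular pathogens, stood at 6.26 and 7.21 with neither source and at 7.12 and 8.01 with both, where the groups overlapped (-0.83 ± 0.29). Without replicate 1 of the neither group Iigp1 differed by -0.35, and without replicate 2 of the both group by -0.39. The interferon-stimulated response element was searched as AAANNGAAA on both strands. Of the 22 genes of the list with a promoter to search, 14 hold it (63.6%), beside 10.8% of 27025 genes and 9.37% of 32851 promoters. Gbp4, Ido1 and Iigp1 are not among the 14, and each may lack the motif or a promoter to search.

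Markers of immune cells that an epithelial isolate can hold were read beside these groups. Of 27 monocyte and macrophage markers 20 were below 0, with a median of -0.17 and a list mean of 6.47 and 6.44 in the neither arrays against 6.59 and 6.61 in the both arrays. At an unadjusted p under 0.05, 4 of the 27 (14.8%) were lower and 1 (3.7%) was higher with neither source, beside 1.32% and 0.978% of all genes. Mpeg1, a pore-forming protein of macrophages, stood at 6.29 and 6.24 with neither source and at 6.74 and 6.68 with both (-0.44 ± 0.13), and Cybb, the oxidase subunit of phagocytes, at 6.58 and 6.70 with neither source against 6.96 and 7.35 with both (-0.52 ± 0.22). Itgax, the CD11c integrin chain of dendritic cells and macrophages, was the higher one, at 6.12 and 6.44 with neither source against 6.09 and 5.87 with both (0.30 ± 0.13), and Ms4a7, a membrane protein of macrophages, differed by -0.31 ± 0.13. Without replicate 2 of the both group Cybb differed by -0.32 and Ms4a7 by -0.15, and without replicate 2 of the neither group Itgax differed by 0.15. Ptprc, the common leukocyte marker CD45, stood at 6.80 and 6.91 with neither source and at 7.12 and 7.43 with both (-0.42 ± 0.18; -0.27 without replicate 2 of the both group). The 22 neutrophil markers had a list mean of 6.98 and 6.94 in the neither arrays against 7.09 and 7.07 in the both arrays, with a median difference of -0.09. The 31 T cell and intraepithelial lymphocyte markers had a list mean of 6.08 in each neither array against 6.23 and 6.11 in the both arrays, with a median of -0.04, which was 0.05 without replicate 1 of the both group and -0.12 without its replicate 2. For 20 B cell and plasma cell markers the median was 0.08, which was 0.28 without replicate 1 of the both group and -0.04 without its replicate 2, and Jchain, the chain that joins IgA into dimers, stood at 4.64 and 4.86 with neither source and at 4.69 and 4.43 with both, where the groups overlapped. The part of other cells in the values of cytokines and antigen presentation was not tested.

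Of 30 antimicrobial defence genes, 20 were below 0 with a median of -0.11, and 3 (10%) had an unadjusted p under 0.05, all lower with neither source, beside 1.32% of all genes. Without replicate 2 of the neither group the median was -0.04, with 18 of 30 below 0, and without replicate 2 of the both group it was -0.07. Lcn2, a protein that withholds iron from bacteria and marks colitis, stood at 7.13 and 6.48 in the neither arrays, at 8.21 and 7.08 in the passive only arrays, at 7.20 and 7.0 in the active only arrays and at 7.60 and 7.96 in the both arrays. Neither and both did not overlap for Lcn2, but a passive only array was the highest of the 8 (-0.97 ± 0.29, adjusted p = 1). Wfdc18 stood at 9.37 and 9.06 with neither source and at 9.69 and 10.13 with both (-0.70 ± 0.21), and Slpi, an inhibitor of neutrophil elastase, at 8.05 and 7.82 with neither source against 8.40 and 8.35 with both (-0.44 ± 0.18). S100a9, a subunit of calprotectin, stood at 7.09 and 6.81 with neither source and at 7.45 and 7.59 with both (-0.57 ± 0.28). The passive only group was above the both group in the mean for Wfdc18, Slpi and S100a9, by 0.16, 0.32 and 0.06.

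Enteroendocrine genes, of the rare hormone cells of the epithelium, were the list with the largest number below the unadjusted threshold: 8 of 22 (36.4%), all lower with neither source, beside 1.32% of all genes. The median was -0.20, and for 14 of the 22 (63.6%) the neither arrays lay wholly below the both arrays, beside 12.5% of all genes. The list mean was 7.28 and 7.20 in the neither arrays, 7.48 and 7.42 in the passive only arrays, 7.26 and 7.22 in the active only arrays, and 7.47 and 7.49 in the both arrays. It was thus low in both groups of Pigr-/- dams and high in both groups of Pigr+/- dams. Gcg, which encodes proglucagon, stood at 9.37 and 9.13 with neither source, at 9.82 and 9.57 with passive only, at 9.43 and 9.25 with active only and at 9.68 and 10.10 with both (-0.64 ± 0.17, adjusted p = 1). Insl5, a hormone of colonic L cells, stood at 10.09 and 9.39 with neither source and at 10.49 and 10.29 with both (-0.65 ± 0.20; -0.30 without replicate 2 of the neither group), and Neurod1, a transcription factor of this lineage, at 6.24 and 6.10 with neither source against 6.52 and 6.97 with both (-0.58 ± 0.20; -0.35 without replicate 2 of the both group). The list's median lay between -0.23 and -0.21 when any 1 of the 4 arrays was left out. In RNA of pooled epithelial isolates, fewer cells of a type in the isolate and less RNA per cell cannot be told apart. In untreated mice, on other arrays, the list's median was 0.06.

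**Figure D4:**
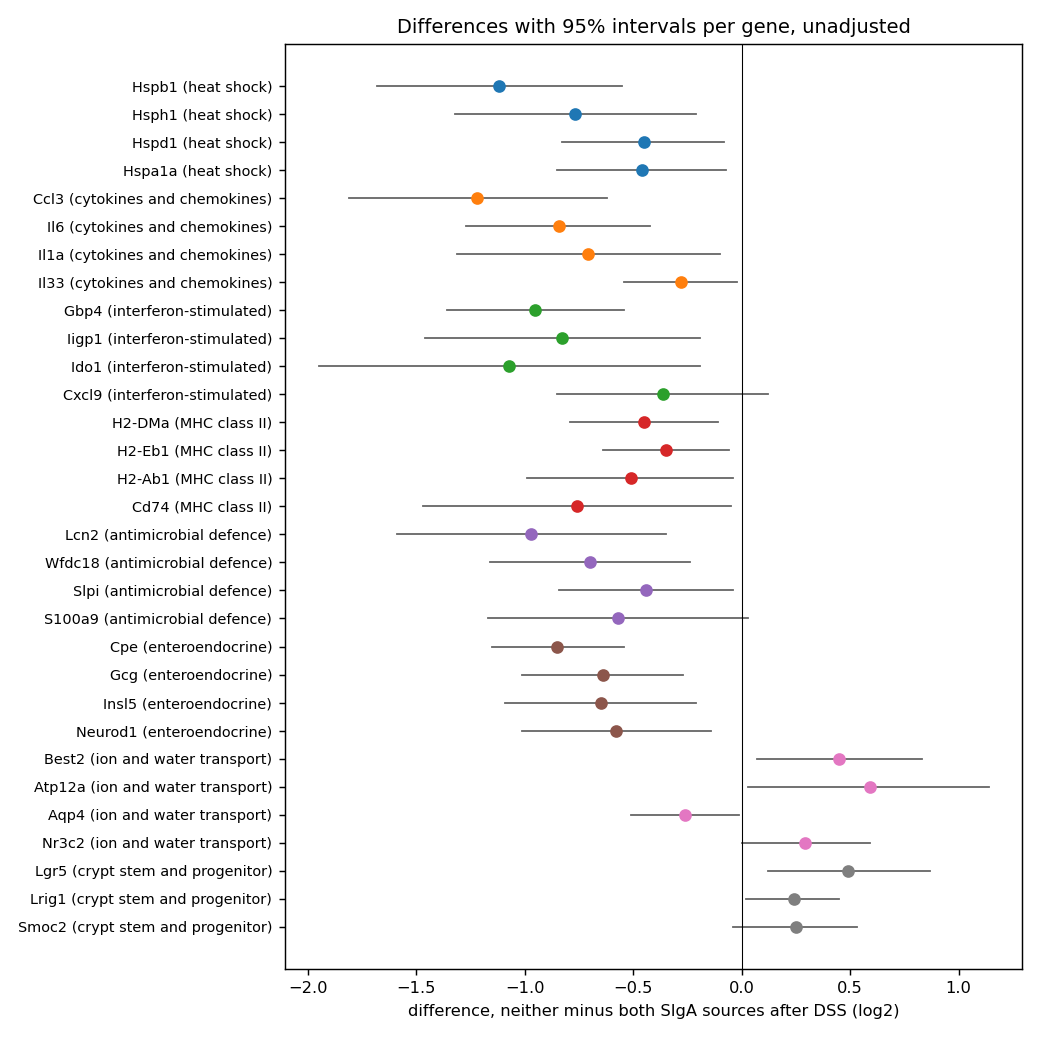
Difference between neither and both after DSS (x axis, log2) with its 95% interval (unadjusted) for up to 4 members of smallest p of 8 gene lists. The intervals of Hspb1, Ccl3, Il6, Gbp4 and Cpe reach no nearer to 0 than -0.42, while those of Cxcl9 and S100a9 include 0.

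Other epithelial functions had medians on either side of 0. Of 31 ion and water transport genes, 25 were above 0 with a median of 0.12. For 14 (45.2%) the neither arrays lay wholly above the both arrays, beside 10.2% of all genes, and for 4 (12.9%) wholly below, beside 12.5%. At an unadjusted p under 0.05, 2 of the 31 (6.45%) were higher and 1 (3.23%) was lower with neither source, beside 0.978% and 1.32% of all genes. Best2, a bicarbonate channel of colonic goblet cells that is among the 28 genes that fell with DSS, stood at 8.51 and 8.64 with neither source and at 8.29 and 7.97 with both (0.45 ± 0.18, adjusted p = 1; 0.28 without replicate 2 of the both group). Atp12a, the colonic proton-potassium pump, stood at 10.49 and 10.29 with neither source and at 9.84 and 9.76 with both (0.59 ± 0.26), but an active only array reached 11.21. Of 22 crypt stem and progenitor genes, 15 were above 0 with a median of 0.06, and without replicate 2 of the both group the median was -0.04. At an unadjusted p under 0.05, 2 of the 22 (9.09%) were higher and 1 (4.55%) was lower with neither source, beside 0.978% and 1.32% of all genes. Lgr5, the marker of crypt base stem cells, stood at 7.55 and 7.09 with neither source and at 7.02 and 6.63 with both (0.49 ± 0.17, adjusted p = 1), and Lrig1, a further stem cell marker, at 9.83 and 9.74 with neither source against 9.52 and 9.58 with both (0.24 ± 0.10). Lgr5 differed by 0.27 without replicate 1 of the neither group and by 0.30 without replicate 2 of the both group. The lower one was Aqp4, a water channel, at 11.57 and 11.56 with neither source against 11.74 and 11.91 with both (-0.26 ± 0.11).

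Wound repair genes had a median of -0.08 over 33 members, between -0.15 and -0.05 with 1 of the 4 arrays left out. Of them 4 (12.1%) had an unadjusted p under 0.05, all lower with neither source, beside 1.32% of all genes. These were Ptk6, Vnn1 (-0.46 ± 0.13), Mmp13 (-0.40 ± 0.11) and Clu (-0.33 ± 0.13). Mmp13, a collagenase, stood at 6.22 and 6.35 with neither source and at 6.71 and 6.67 with both, and the single-source arrays, at 6.11 and 6.27 for passive only and at 6.07 and 6.16 for active only, were as low as those of neither. Cell cycle genes had a median of -0.05 over 36 members, with 28 below 0, but a median of 0.00 with 18 below 0 without replicate 1 of the neither group and of -0.14 without its replicate 2, and Ccnd1, a cyclin that starts the cycle, stood at 10.57 and 10.67 with neither source and at 11.04 and 10.97 with both (-0.39 ± 0.12). Tight junction and adhesion (25 members, median -0.03), oxidative phosphorylation (27, -0.01), the unfolded protein response (30, -0.01) and goblet cell genes (21, 0.00) had members between -0.43 and 0.35. Every 95% interval of the oxidative phosphorylation genes lay between -0.46 and 0.40. The 16 circadian clock genes had a median of 0.23, which was 0.05 without replicate 1 of the neither group.

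**Figure D5:**
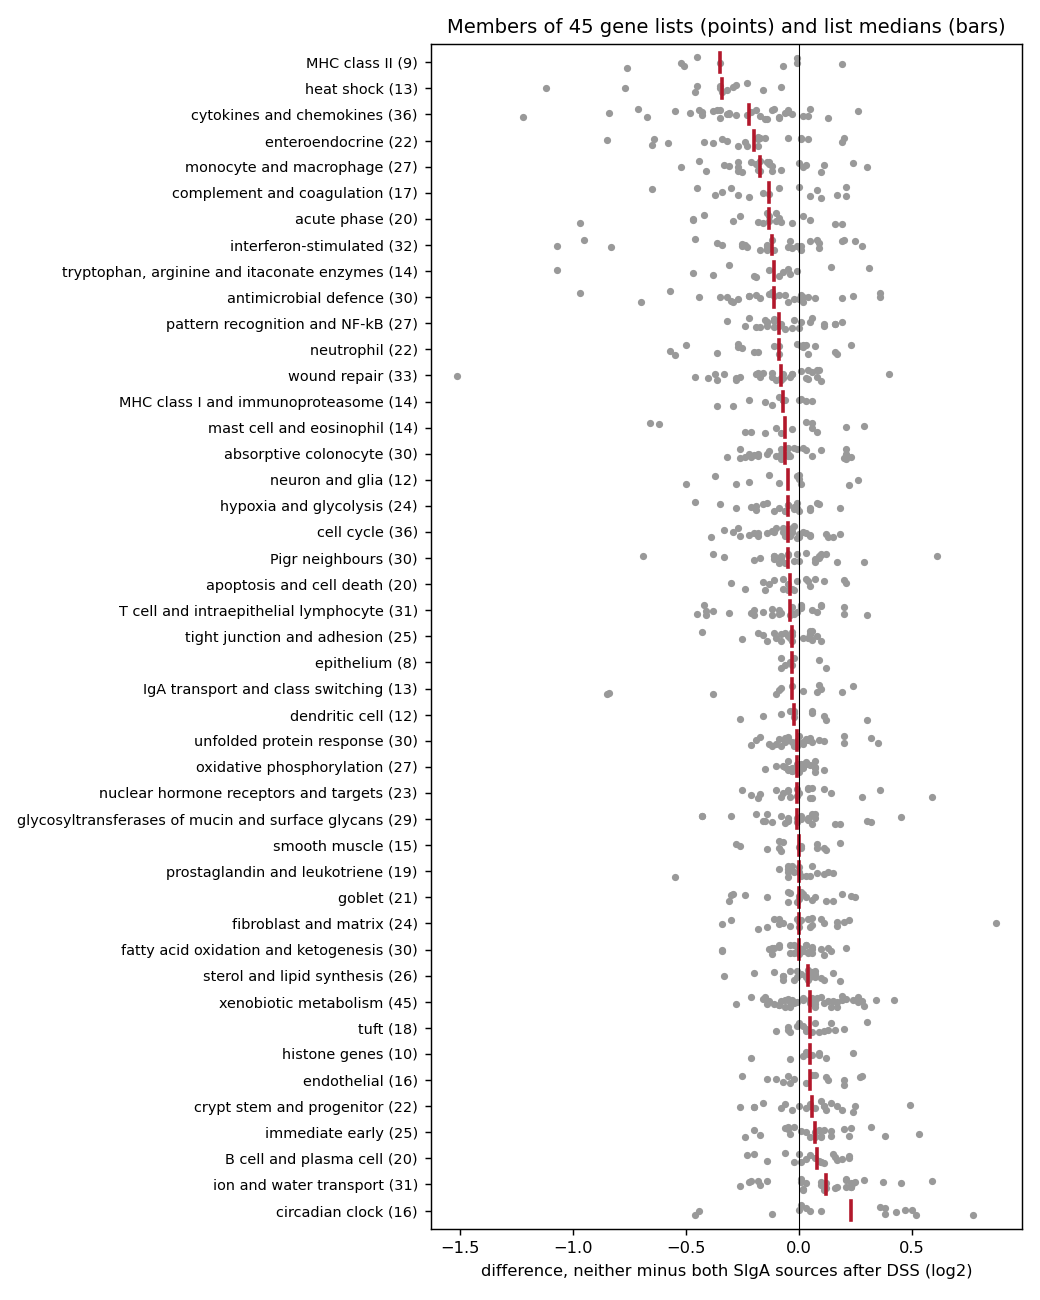
Difference between neither and both after DSS (x axis, log2) for the members of 45 gene lists, without that of sex-linked genes (points, one row a list, number measured in brackets) with the median of each list (bars). The medians shown run from -0.35 for MHC class II to 0.23 for circadian clock genes.

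The 13 measured genes of IgA transport and class switching were otherwise spread around 0, with a median of -0.03. With Pigr, 3 of the 13 (23.1%) had an unadjusted p under 0.05, all lower with neither source, beside 1.32% of all genes. The others were Il6, described above, and Il10, an anti-inflammatory cytokine. Il10 stood at 4.47 and 4.29 with neither source and at 4.51 and 5.01 with both (-0.38 ± 0.17, or -0.13 without replicate 2 of the both group). Its level was low, as was that of Il6. Pigr and Il10 lie close together on chromosome 1, and the 15 genes on either side of Pigr were read as a group. Their median was -0.05 with 19 of 30 below 0 and 0 called by limma, and 2 had an unadjusted p under 0.05 in each direction (6.67%, beside 0.978% higher and 1.32% lower among all genes). Ctse, which encodes the protease cathepsin E, stood at 9.36 and 8.98 in the neither arrays, at 8.98 and 8.53 in the passive only arrays, at 9.37 and 9.27 in the active only arrays and at 9.77 and 9.96 in the both arrays. The both arrays were the highest of the 8, and the difference was -0.69 ± 0.20 (adjusted p = 1). The others were Ikbke, a kinase of innate immune signalling (0.29 ± 0.13), and Cd55b, a complement regulator (0.61 ± 0.28).

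The 2 groups with a single SIgA source place the difference on its steps. These comparisons share arrays with the main one and with each other. Passive only minus both had 1 gene called (0.00502%), Pigr at -1.01 ± 0.10 (adjusted p = 0.00514), and neither minus active only also had 1 (0.00502%), again Pigr at -0.92 ± 0.10 (adjusted p = 0.0157). These are the steps at which the offspring loses Pigr. Active only minus both, in which only the dam's genotype differs, had 0 genes called by limma and 622 (3.12%) with an unadjusted p under 0.05. Its smallest p-values were those of Rnu3a (1.02 ± 0.19), Inhba, a subunit of activin (-0.63 ± 0.12), and Mmp13 (-0.57 ± 0.11), each with an adjusted p of 0.725. Neither minus passive only, the same step in Pigr-/- offspring, had 0 called by limma and 629 (3.15%) with an unadjusted p under 0.05, and its smallest p-values were those of Ptk6 (-1.56 ± 0.22, adjusted p = 0.155), Vnn1, a pantetheinase (-0.78 ± 0.13, adjusted p = 0.211), and Slc37a2, a sugar phosphate transporter (0.90 ± 0.15, adjusted p = 0.211).

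Whether the sources act additively was asked by the non-additive term, neither minus passive only minus active only plus both. By limma 0 genes were called, and 426 (2.14%) had an unadjusted p under 0.05. The smallest p-values were those of Tmigd1, an adhesion protein of epithelial cells (-1.15 ± 0.20, adjusted p = 0.887), Acta2, smooth muscle actin (1.40 ± 0.25, adjusted p = 0.887), and Inhba (0.85 ± 0.17, adjusted p = 1). Tmigd1 stood at 8.53 and 8.68 with neither source, at 9.42 and 9.27 with passive only, at 8.89 and 9.08 with active only and at 8.50 and 8.65 with both. Each single-source group was thus above the 2 ends, which overlapped. Acta2 stood at 7.39 and 7.66 with neither source, at 6.91 and 6.81 with passive only, at 7.02 and 7.10 with active only and at 8.13 and 7.47 with both, so that its single-source groups were below the 2 ends. Without replicate 2 of the both group Acta2 was the 1 gene called for this term.

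The same comparison in untreated mice, on 4 other arrays, called 1834 genes (9.2%), of which 541 (2.71%) were higher and 1293 (6.49%) lower with neither source. With each array centred on its median, 208 were higher and 1875 lower. Rny1 was among those that rose (1.5 ± 0.27, adjusted p = 0.00413), with Ciart (2.25) and Dbp (2.11), genes of the circadian clock's output, and Zfp600, a zinc finger gene, fell by 3.04, with Srsy (-2.93) and Prl3d3 (-2.04). Ciart stood at 8.41 and 8.91 with neither source and at 6.32 and 6.51 with both in untreated mice, and at 8.45 and 7.29 with neither source and at 7.54 and 7.20 with both after DSS, where the groups overlapped. Of the 1834, 792 were chemosensory receptor or keratin-associated genes, the class whose level sets the untreated both arrays apart. With that class left out, 553 were called, 258 higher and 295 lower. The difference of the differences, after DSS minus untreated, was called for 433 genes (2.17%), 409 of them (2.05%) above 0 and 24 (0.12%) below, and 425 of the 433 were called in untreated mice while 0 were called after DSS. Of the 433, 338 were of the chemosensory and keratin-associated class, and with that class left out 15 genes were called. Without the dimmest 30% of genes, 308 genes were called in untreated mice and 7 for the difference of the differences. Ptk6, Cpe and Tgm2 were among the 24 genes below 0, with values given under the results for a closer look.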

How the data were processed

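Whole-transcript arrays measured RNA of 16 pools of colonic epithelial cells from 3 mice each. Per the labels' protocols, the RNA had an integrity number of 8.5 or more. The deposited values are on a log2 scale and come from RMA, which corrects background, equalizes array distributions and summarizes probes. RMA is named in the submitters' processing notes, with a version not given in the sources used here. The table held 35557 probe sets with values from 1.857 to 14.938 and array medians from 6.678 to 6.825. The annotation of the array design gave 1 gene for 21789 of them, more than 1 for 1621 and none for 12147. Tests ran on the first kind, with the brightest probe set taken for the 999 genes that had more than 1, which left 19938 genes. RefSeq's gene list held 21698 of the 21789.

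A mean for each of 8 groups was fitted with limma 3.58.1 in R 4.3.3 (8 residual and 5.03 prior degrees of freedom) and tested on simulated data. The labels name no batch. The replicate numbers were not used as pairs in the main fit. Deviations of replicate 1 from its group mean correlated at -0.161 between neither and both after DSS. Over the 28 pairs of groups the correlation ran from -0.301 to 0.666, with a median of 0.076. Same-numbered arrays of some groups thus deviated together, and whether the numbers mark a batch was not settled.

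The comparison, its members and the gene lists were chosen with earlier results of these data known. Named genes were those called and, in each direction up to 10, those of smallest p, except symbols starting with Gm, LOC, Mir, Snor, Scarna, Olfr, Vmn or Taar or ending in Rik (2794 genes). For other comparisons the 3 of smallest p were named, or the 3 highest and lowest where genes were called, and of each list up to 4 of smallest p. Injury genes, small RNAs and Y-linked genes were added after values were seen. Alternatives were a mean-dependent prior, unmoderated tests, weights for arrays, the replicate number as a block, other scalings, filters, probe set rules and thresholds, fewer arrays in the fit, and each compared array left out.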

Additional observations from a re-analysis of the deposited data

Results flagged for a closer look

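The difference between neither and both differed between DSS-treated and untreated mice for 433 genes, by the test of the difference itself (limma, adjusted p under 0.05). Values here are the difference after DSS minus the difference in untreated mice, on the log2 scale. With chemosensory receptor and keratin-associated genes left out of the genes tested, 15 genes were called, and of those named here Zfp600 alone kept its call.

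Zfp600, a zinc finger gene, gave 3.35 ± 0.18 (adjusted p = 2.14e-06). It stood at 2.97 and 2.92 with neither source and at 2.82 and 2.44 with both after DSS, and at 2.59 and 2.56 with neither source and at 5.65 and 5.57 with both in untreated mice, so that the untreated both arrays alone were high. Prl3d3, a placental prolactin relative, gave 2.13 and Zfp980, another zinc finger gene, 2.12, and each was high in the same 2 untreated arrays. Mcpt4, a mast cell protease, gave 0.71, with 5.14 and 5.18 with neither source and 4.89 and 4.86 with both after DSS, and with 4.80 and 4.79 with neither source and 5.18 and 5.27 with both in untreated mice.

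Ptk6 gave -1.70 ± 0.31 (adjusted p = 0.012). Its difference was -1.51 after DSS and 0.19 in untreated mice. Cpe gave -0.98, with -0.85 after DSS and 0.14 in untreated mice, and Tgm2 gave -0.76, with -0.56 after DSS and 0.20 in untreated mice. H2-DMa gave -1.08, with -0.45 after DSS and 0.63 in untreated mice. Gda, a guanine deaminase, gave -1.10, of which 0.95 lay in untreated mice and -0.15 after DSS. For these genes and Prl3d3, Zfp980 and Mcpt4 the adjusted p without the chemosensory class was between 0.0749 and 0.17. The part of the untreated both arrays, which stand apart in that class, in these values was not tested.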

How the results depend on the processing

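The number of genes called between neither and both after DSS, 1, was 8 with limma-trend (Pigr, Ptk6, Rnu3a and 5 small nucleolar RNAs), 0 with array weights, 3 with the replicate number as a block (Pigr, Snora62 and Snord118), 2 with arrays centred on their median, 0 with quantile normalization of the genes tested, 3 at an adjusted p under 0.1 and 0 with only the arrays compared. Where limma gave 0, the genes at an unadjusted p under 0.05 were 326, 593 and 341 in the same order. It was 3 without 3 untreated arrays and 4 with limma-trend on the 8 DSS arrays, both chosen after seeing the data. In the fit of the 8 DSS arrays, and in that without the untreated both group, the 1 gene called was Snord118 instead of Pigr. Leaving out compared arrays gave 0 to 1. The difference of Pigr was -0.85 in each of these fits but that of centred arrays, and it missed the threshold with array weights (adjusted p = 0.0868), quantile normalization (0.0779), the 8 DSS arrays (0.135), only the arrays compared (0.936) and without the untreated both group (0.0511). Over compared arrays left out it ran from -0.90 to -0.80 (adjusted p 0.197 to 0.326). The untreated count of 1834 was 3144 with array weights, 308 without the dimmest 30% of genes, 2884 at an adjusted p under 0.1, 553 without the chemosensory class and 638 to 1115 with arrays left out. The count for the difference of differences, 433, was 166 with no moderation, 801 with centred arrays, 7 without dim genes, 695 at an adjusted p under 0.1, 15 without the chemosensory class and 156 to 634 with arrays left out. Passive only minus both, 1, gave 2 with centred arrays, 0 with the 8 DSS arrays and 0 to 2 with arrays left out. Active only minus both, 0, gave 1 with the replicate block and 0 with each array left out. Neither minus passive only, 0, gave 0 to 1 with arrays left out. Neither minus active only, 1, gave 0 with the 8 DSS arrays and 0 with each array left out. The non-additive term, 0, gave 0 to 1. Of 132 genes followed under 18 alternatives, Ptk6 passed with limma-trend (adjusted p = 0.026), as did Rnu3a (0.0282). Over compared arrays left out, the sign turned for Eif2s3y (-1.84 to 0.41), Clca4b (-0.52 to 0.23), Reg3g (-0.65 to 0.05), Tmigd1 (-0.04 to 0.11), Acta2 (-0.60 to 0.05) and Ciart (-0.08 to 1.08), and for no other of the 132. The causes were not tested. The replicate numbers are shared by all groups, whether they mark a batch was not settled, and the block changed no other count by more than 1.5 times. A group left with 1 array took its spread from the other groups.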
